A study of Mus musculus with 6 samples.

Results

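The autophagy genes examined here are 36 core members of the pathway, chosen by name from the initiation kinase to the cargo receptors and the transcription factors that drive the programme. A gene was measured through the brightest probe set annotated to that gene alone, where a probe set is a group of short oligonucleotides on the array that reads 1 transcript or a few. Of the 36 genes, 35 were matched in this way and all 35 were bright enough to be tested, among 11576 genes tested in all. Optn, a cargo receptor, had no probe set that met the rule and was not analysed here.

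The arrays compared quiescent with activated neural stem cells from the ventricular-subventricular zone of adult mice, a layer that makes neurons throughout life. Quiescent cells were sorted as GFAP::GFP+ CD133+ CD24- cells, and activated cells as GFAP::GFP+ CD133+ EGFR+ CD24- cells, so both groups carried GFP under control of the GFAP promoter and both came from adult brains. No treatment was named for either group, and no source used here gives strain or exact age. The labels call the 3 arrays of each group biological replicates without saying whether animals were pooled, so the p-values measure the spread between these samples.

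Autophagy encloses cytoplasm in a double membrane, the autophagosome, and delivers it to the lysosome for breakdown. The ULK kinase complex starts the process when mTORC1 is inactive or AMPK is active, a class III PI3-kinase marks the nascent membrane with PI3P, and 2 ubiquitin-like conjugation systems attach ATG8 proteins to it, where they bind cargo receptors. TFEB and its relatives switch on genes of autophagy and of the lysosome. In adult neural stem cells, lysosomes and autophagy are studied as routes by which dormant cells store and clear proteins.

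Most autophagy genes differed little between the groups, and 4 of the 35 fell in activated cells: Tfeb, Wipi1, Gabarapl1 and Sqstm1. No member rose. Differences are activated minus quiescent on the log2 scale of the MAS5 signal, and genes were called where limma's p, adjusted by Benjamini and Hochberg over all 11576 genes, was under 0.05. By that rule 11.4% of the members were called, where 34.9% of all genes tested were. Split by direction, 17.3% of all genes rose and 17.6% fell, against 0% and 11.4% of the members. At an unadjusted p under 0.05 stood 7 members (20.0%), and 46.0% of all genes. The members had a median difference of -0.25, and all genes one of 0.01. The difference was smaller than 1 in either direction for 28 of 35 members (80.0%) and for 54.7% of all genes tested. For 6 members (17.1%) the whole 95% interval of the difference lay between -1 and 1, which was so for 9.25% of all genes: Rb1cc1, Pik3c3, Ambra1, Atg7, Map1lc3a and Gabarapl2. For the other 29 the interval reached past 1 log2 unit in at least 1 direction. These intervals hold for the brightest probe set only. Another probe set bright enough to test differed by more than 1 for Ambra1 and for Map1lc3a.

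**Figure D1:**
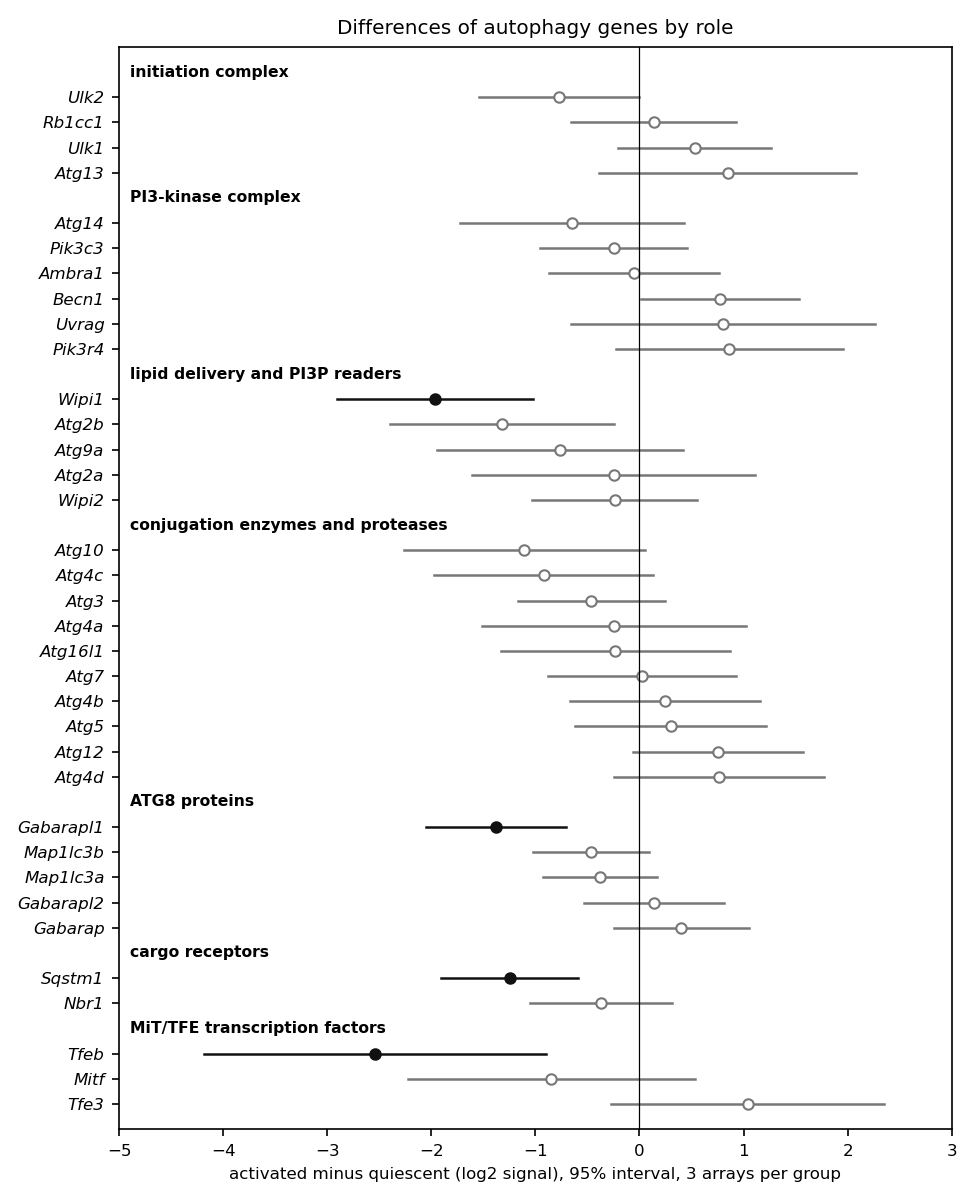
Each point is the difference between the mean log2 signals of 3 activated and 3 quiescent arrays for an autophagy gene, and the line is its 95% interval from the limma fit. The 4 filled points (Tfeb, Wipi1, Gabarapl1, Sqstm1) passed the test and all lie left of 0, while the 31 open points did not pass.

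A few facts on the arrays bear on every value. The cells matched their labels in the lists of stem cell markers: 13 of 13 markers of quiescent stem cells and astrocytes fell and 9 of 9 tested markers of activated cells and progenitors rose. The first list cannot tell quiescent stem cells from astrocytes. Egfr, 1 of the 9, was 2.11 ± 0.24 (SE) higher (adjusted p = 0.000154). Its protein defined the activated sort, so it is no independent check of the labels. Gfap had a fitted difference of -4.18 ± 0.58 (adjusted p = 0.000445), although both sorts required GFP driven by the GFAP promoter. Prom1, which encodes CD133, was lower by the fitted difference of -1.22 ± 0.32 (adjusted p = 0.0133) although both sorts required its protein, and Cd24a was 4.13 ± 0.50 higher (adjusted p = 0.000224) although both excluded it. Hybridisation controls, spiked into the mix at a set amount, averaged 14.3 ± 0.53 (SD, n = 3) on quiescent and 13.7 ± 0.05 on activated arrays (two-sided exact permutation p = 0.1, the smallest that 3 against 3 can give). Scaling each array to these controls, called control scaling here, raised the median difference of all genes from 0.01 to 0.66, so that every difference given here is relative to the deposited scaling. Background lay at 5.67 ± 0.37 on quiescent and 4.60 ± 0.07 on activated arrays, and 1 member, Tfeb, had an array at or below it. The 3′ minus 5′ signal of the Gapdh controls averaged 2.05 ± 0.52 on quiescent and 1.37 ± 0.17 on activated arrays, without overlap (exact permutation p = 0.1). For actin it averaged -0.05 ± 0.16 and 0.07 ± 0.16 (exact permutation p = 0.4). The 18S RNA controls averaged 15.4 ± 0.61 and 14.6 ± 0.04 (exact permutation p = 0.1). The part of these measures in the difference of any member, called or not, was not tested.

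Markers of other cells moved with the groups as well. Mature oligodendrocyte markers fell in 11 of 11 tested cases, their summed log2 signal lying between 14.5 and 16.4 on quiescent and between 11.3 and 12.7 on activated arrays, with none at background on all arrays of a group. Ependymal markers fell in 4 of 5 tested cases (12.2 to 12.7 against 9.14 to 9.54, Spag17 at background on all activated arrays), and pericyte and smooth muscle markers in 3 of 4 (12.2 to 13.1 against 8.75 to 9.37, with Kcnj8, Abcc9, Anpep, Tagln and Des at background on all activated arrays, and Des also on all quiescent ones). Endothelial markers fell in 3 of 4 cases (10.4 to 11.95 against 7.38 to 8.01, with Pecam1, Kdr, Tek and Emcn at background on all activated arrays). Markers of neuroblasts and neurons rose in 3 of 8 cases (11.3 to 13.2 against 14.2 to 14.5, none at background throughout a group). Oligodendrocyte progenitor markers rose in 1 of 5 (10.2 to 11.4 against 11.5 to 11.9, Gpr17 at background on all activated arrays). Of the microglial markers 2 of 12 were bright enough to test and neither was called (9.21 to 9.70 against 8.39 to 8.88). Aif1, C1qa, C1qc and Tmem119 were at background on all 6 arrays, and Ptprc on all quiescent ones. P2ry12 and Cx3cr1, too dim to test, were above background on every quiescent array. P2ry12 read 6.35, 8.01 and 7.36 on quiescent and 4.86, 3.68 and 4.80 on activated arrays, and Cx3cr1 6.34, 5.51 and 7.055 against 2.59, 4.76 and 2.25. Differences above 0 were seen for Cd68, Aif1, C1qa and C1qb. Of the blood markers 1 was tested and it was not called (6.74 to 8.22 against 6.40 to 6.54). The part of these other cells in the differences of autophagy genes was not tested. In sorted bulk samples, fewer cells of a type and less RNA per cell cannot be told apart.

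Tfeb had the lowest fitted difference of the members, with 1 activated array below background, and its protein was not measured. The promoters of several members are shown because that protein binds the letters CACGTG. Each is the run of 250 bases before a RefSeq transcript start in GRCm38.p6, read 5′ to 3′ on the gene's strand, and capitals mark CACGTG, a motif that reads the same on both strands. Gabarapl1 (chr6:129532942-129533191 (plus strand)), Sqstm1 (chr11:50210821-50211070 (minus strand)) and Wipi1 (chr11:109611390-109611639 (minus strand)) are members that fell. Atg3 (chr16:45158579-45158828 (plus strand)) is the member with the most matches. Ctsd (chr7:142387828-142388077 (minus strand)), a lysosomal protease that fell, is 1 of the 12 lysosome genes, of 20 with a promoter, that held CACGTG.
Gabarapl1: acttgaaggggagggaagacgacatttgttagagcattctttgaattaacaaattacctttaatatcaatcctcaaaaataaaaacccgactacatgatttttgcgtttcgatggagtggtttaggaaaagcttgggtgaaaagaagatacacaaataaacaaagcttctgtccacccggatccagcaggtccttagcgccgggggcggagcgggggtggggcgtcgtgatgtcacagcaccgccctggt
Sqstm1: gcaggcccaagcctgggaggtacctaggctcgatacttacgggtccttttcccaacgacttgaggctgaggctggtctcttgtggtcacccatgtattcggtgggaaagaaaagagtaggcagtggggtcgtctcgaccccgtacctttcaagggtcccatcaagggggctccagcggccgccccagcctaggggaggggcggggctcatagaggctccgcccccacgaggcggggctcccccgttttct
Wipi1: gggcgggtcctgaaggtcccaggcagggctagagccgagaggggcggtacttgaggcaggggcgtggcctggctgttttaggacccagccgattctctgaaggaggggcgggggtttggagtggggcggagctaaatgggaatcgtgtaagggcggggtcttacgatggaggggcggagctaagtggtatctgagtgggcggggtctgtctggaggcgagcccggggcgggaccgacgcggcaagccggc
Atg3: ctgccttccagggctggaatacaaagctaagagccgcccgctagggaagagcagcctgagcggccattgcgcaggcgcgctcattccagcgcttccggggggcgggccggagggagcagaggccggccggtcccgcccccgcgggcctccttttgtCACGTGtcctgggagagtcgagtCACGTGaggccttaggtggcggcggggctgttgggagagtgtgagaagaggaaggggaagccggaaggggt
Ctsd: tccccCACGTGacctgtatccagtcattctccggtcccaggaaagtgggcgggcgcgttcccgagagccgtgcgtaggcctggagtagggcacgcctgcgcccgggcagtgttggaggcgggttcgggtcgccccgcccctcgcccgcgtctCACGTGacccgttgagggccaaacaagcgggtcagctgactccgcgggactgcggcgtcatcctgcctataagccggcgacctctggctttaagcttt

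Promoters were found for 29 of the 35 members. CACGTG occurred before the start of 3 of them (10.3%), against 6.86% of 27025 genes with a promoter in the same table. The 3 were Atg3, with matches at positions -94 and -71 from the start, Atg5 (-14) and Atg7 (-132). All 3 are genes of the conjugation systems, and none of them was called. None of the promoters of the 4 genes that fell, including 3 windows for Tfeb, held it. Of 20 lysosome genes with a promoter, chosen by name as known targets of TFEB, 12 held CACGTG, among them 6 of the 10 that fell and 6 of the 10 that were not called. TFEB binds these letters, so the motif shares of a list chosen as its targets are not independent of that choice. The longer form TCACGTGA, which contains CACGTG and so counts the same places, was found in 1 member (Atg3, 3.45%), in 6 lysosome genes (30.0%) and in 0.907% of all genes. GTAAACA, the letters bound by FOXO factors, searched on both strands, was in 0 members' windows and in 3.54% of genes. A match describes the letters only.

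Among the transcription factors, Tfeb fell. It encodes the basic helix-loop-helix factor that mTORC1 holds in the cytoplasm and that activates lysosome and autophagy genes once released. Its log2 signal was 8.04, 7.88 and 8.37 on quiescent arrays 1 to 3, and 7.06, 4.10 and 5.52 on activated arrays. All quiescent arrays lay above all activated ones, but the activated arrays were far apart, and array 2 was below its background of 4.52. The fitted difference was -2.54 ± 0.74 (SE, adjusted p = 0.0228), with a 95% interval from -4.19 to -0.90. This call was lost without any single array other than activated array 1 (adjusted p = 0.0513 to 0.074, and 0.00983 without activated array 1) and under control scaling (adjusted p = 0.0824).

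Tfe3 and Mitf, the relatives that bind the same letters, were not called. Tfe3 read 8.97, 8.64 and 9.88 on quiescent and 8.86, 11.42 and 10.32 on activated arrays, so that the groups overlapped. Its difference was 1.04 ± 0.59 (adjusted p = 0.194), with an interval from -0.27 to 2.35. It passed without activated array 1. Mitf read 7.36, 7.52 and 7.30 against 7.12, 7.15 and 5.37. The quiescent arrays lay above the activated ones, 2 of which were within 0.5 of the quiescent values, and the difference of -0.85 ± 0.62 was not called (adjusted p = 0.31).

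Of the 5 genes for lipid delivery and PI3P recognition, Wipi1 fell. It encodes a WD-repeat protein that binds PI3P on the forming autophagosome. Quiescent arrays read 10.86, 9.65 and 9.71, and activated arrays 7.78, 8.24 and 8.32, with more than 1 log2 unit between the groups. The difference was -1.96 ± 0.43 (adjusted p = 0.00546), a 3.90-fold lower signal. It was still called under control scaling (-1.32, adjusted p = 0.0426). The probe sets of Wipi1 did not all read alike. Of 4 above the filter on dim signals, 3 had quiescent arrays above activated ones (differences of -1.09, -1.39 and -1.96), whereas the remaining one differed by 0.02 with overlapping groups. That one is the brightest without the suffixes for shared sequence, _s_at and _x_at, and the call for Wipi1 was lost when it was used instead (adjusted p = 0.971).

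The relatives of Wipi1 and the lipid carriers were not called. Atg2b, a lipid transfer protein of the growing membrane, read 9.35, 8.77 and 8.06 on quiescent and 7.41, 7.08 and 7.74 on activated arrays. The groups did not overlap, and the difference of -1.32 ± 0.48 narrowly missed the threshold (adjusted p = 0.0563). It passed in 4 of 17 alternatives, with adjusted p-values between 0.0213 and 0.342 over all of them, and its second probe set above the filter also differed by -1.32. Its close relative Atg2a differed by -0.25 ± 0.61, the scramblase Atg9a by -0.77 ± 0.53 and Wipi2, which recruits the conjugation machinery, by -0.24 ± 0.36. All 5 genes of this role had differences below 0 on their brightest probe set with the deposited scaling. The same held for 5754 of the 11576 genes tested. Other Wipi2 probe sets above the filter differed by 0.31 and -0.81, and neither was called. Under control scaling Wipi2 and Atg2a lay above 0 (0.41 and 0.40), and Atg2a also after quantile normalization (0.055).

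Within the ATG8 family 1 of 5 genes fell. ATG8 proteins are small ubiquitin-like proteins that are joined to the lipid phosphatidylethanolamine in the autophagosome membrane. Gabarapl1 read 11.52, 11.003 and 11.05 on quiescent and 9.73, 9.57 and 10.15 on activated arrays. Every quiescent array was at least 0.8 above every activated one, and the difference was -1.38 ± 0.30 (adjusted p = 0.00578), a 2.60-fold lower signal. Its second probe set differed by -1.19 ± 0.31 (adjusted p = 0.0154 in a fit of all probe sets). The call held in 16 of 17 alternatives and was lost under control scaling (-0.73, adjusted p = 0.168).

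The other ATG8 genes did not pass. Gabarap read 11.57, 11.20 and 12.14 against 11.89, 12.28 and 11.93, a difference of 0.40 ± 0.29 (adjusted p = 0.307, interval -0.25 to 1.05). Gabarapl2 differed by 0.14 ± 0.31 (adjusted p = 0.747, interval -0.54 to 0.81). Within arrays, Gabarapl1 minus Gabarap averaged -0.44 ± 0.56 (SD, n = 3) in quiescent and -2.22 ± 0.47 in activated cells. Gabarapl1 minus Gabarapl2 averaged 0.54 ± 0.01 and -0.97 ± 0.66. Neither pair overlapped between the groups (exact permutation p = 0.1 for each), and a scaling that shifts a whole array leaves these differences as they are. The within-array pairs given here were chosen after the values were seen.

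Both LC3 genes had small differences on their brightest probe set. Map1lc3b, the usual marker of autophagosomes, read 13.11, 12.77 and 13.19 on quiescent and 12.21, 12.70 and 12.78 on activated arrays. Its groups overlapped by less than 0.01, the difference being -0.47 ± 0.25 (adjusted p = 0.175), and its 3 further probe sets differed by -0.05 to 0.06. Map1lc3a read 11.52, 11.52 and 11.70 against 11.16, 11.39 and 11.06. The groups did not overlap although the difference was -0.38 ± 0.25 (adjusted p = 0.255). Its second, dimmer probe set pointed the other way, with 7.86, 6.32 and 8.92 on quiescent and 9.16, 9.08 and 9.83 on activated arrays (1.66 ± 0.61, adjusted p = 0.0611), so no direction is given for Map1lc3a.

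**Figure D2:**
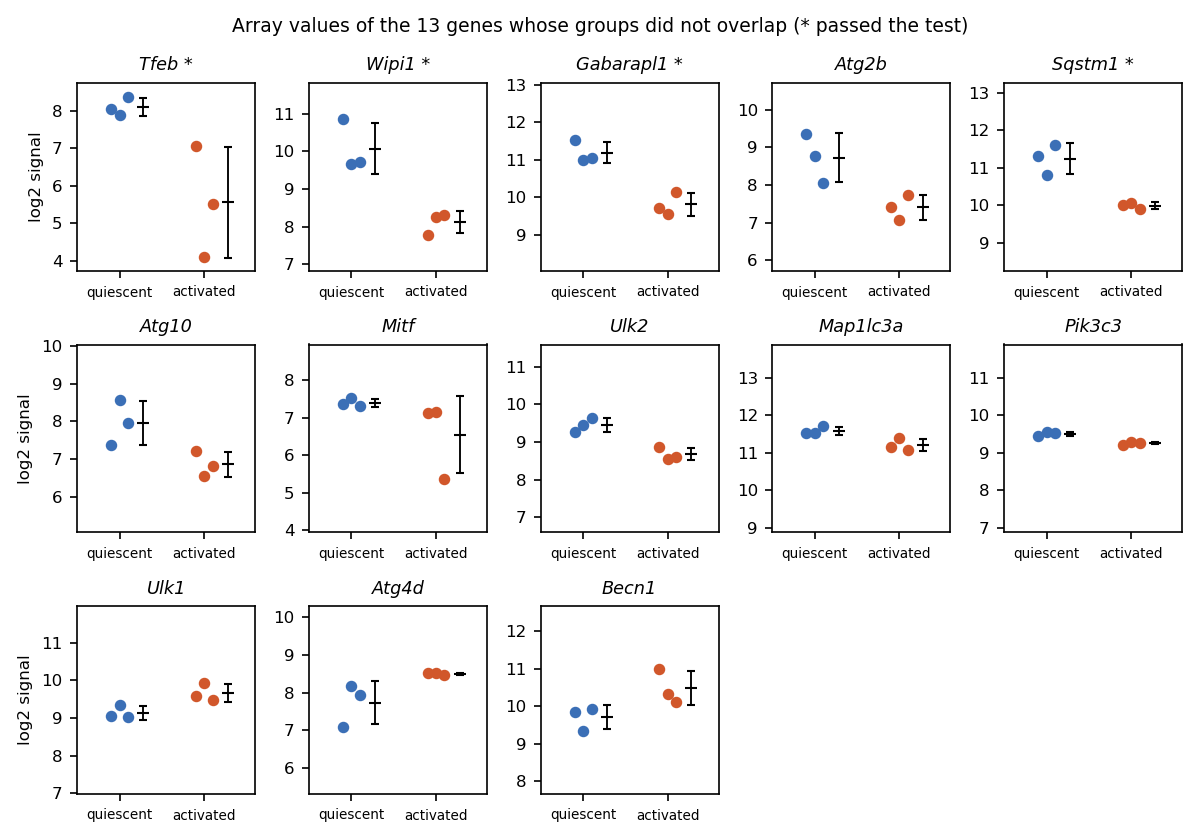
Log2 signals of single arrays (points, 3 per group) for the 13 autophagy genes whose groups did not overlap, with the mean ± SD beside them; all panels span 5 log2 units. Quiescent arrays were higher for 10 genes and activated arrays for 3 (Ulk1, Atg4d, Becn1), and the 4 genes marked with a star passed the test.

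Of the cargo receptors, Sqstm1 fell and Nbr1 did not pass. Sqstm1 encodes p62, which binds ubiquitinated cargo and ATG8 proteins and is itself degraded by autophagy. It read 11.30, 10.80 and 11.62 on quiescent and 9.999, 10.07 and 9.90 on activated arrays. The activated arrays lay within 0.2 of each other and below every quiescent array. The difference was -1.25 ± 0.30 (adjusted p = 0.00894), a 2.38-fold lower signal, and its second probe set differed by -2.22 ± 0.48 (adjusted p = 0.00568). Like Gabarapl1, the call held in 16 of 17 alternatives and was lost under control scaling (-0.61, adjusted p = 0.279). Nbr1, a receptor of related build, read 12.42, 12.36 and 11.56 against 11.36, 12.001 and 11.86. Its groups overlapped, with a difference of -0.37 ± 0.31 (adjusted p = 0.367). Sqstm1 minus Nbr1 within arrays was -0.87 ± 0.83 (SD, n = 3) and -1.75 ± 0.34, which overlapped (exact permutation p = 0.2).

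None of the 4 genes of the initiation complex was called. Ulk1 and Ulk2, the kinases that start autophagy, had differences of opposite sign. Ulk1 read 9.05, 9.34 and 9.02 on quiescent and 9.58, 9.94 and 9.48 on activated arrays, each activated array lying above each quiescent one (0.53 ± 0.33, adjusted p = 0.237). Ulk2 read 9.26, 9.45 and 9.63 against 8.86, 8.56 and 8.60, the reverse order (-0.77 ± 0.35, adjusted p = 0.108). A second Ulk2 probe set fell by 1.69 ± 0.45 (adjusted p = 0.0156) and a further one differed by -0.14. Whether the kinases differ from each other in response was not tested. Rb1cc1, the scaffold FIP200, differed by 0.14 ± 0.36 (interval -0.65 to 0.93). Its other probe sets above the filter differed by -0.87, with quiescent arrays above activated ones, and by -0.65 with overlap, and neither was called. Atg13, the adaptor that is phosphorylated by mTORC1, differed by 0.85 ± 0.56, and its second probe set above the filter by -0.81.

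The 6 genes of the PI3-kinase complex gave no call either. Becn1, the regulatory subunit that binds BCL2, read 9.85, 9.34 and 9.93 on quiescent and 10.99, 10.33 and 10.12 on activated arrays. The activated arrays lay above the quiescent ones by a margin of 0.2, and the difference was 0.78 ± 0.34 (adjusted p = 0.101). It passed under control scaling (1.42, adjusted p = 0.028) and turned to -0.12 when its probe sets were averaged (adjusted p = 0.856). Its other probe sets above the filter differed by 0.04 and -1.47, and those below it by 1.47 and -1.40. Pik3c3, the catalytic subunit VPS34, read 9.44, 9.54 and 9.54 against 9.22, 9.29 and 9.26. Its groups did not overlap, yet the difference of -0.25 ± 0.32 was small (adjusted p = 0.567, interval -0.95 to 0.46), and it was 0.40 under control scaling.

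The other subunits varied more between arrays of a group. Pik3r4, the subunit VPS15, read 7.83, 8.66 and 9.83 on quiescent and 9.64, 9.40 and 9.88 on activated arrays. Uvrag, a subunit that acts in endosome traffic, read 6.82, 7.60 and 9.498 against 9.42, 8.28 and 8.62. Both had quiescent array 3 at or above the level of most activated arrays and quiescent array 1 lowest, with differences of 0.86 ± 0.49 and 0.80 ± 0.66 that did not pass (adjusted p = 0.194 and 0.364). Without quiescent array 3 both were called higher, the only members to be so in that fit. The 3′ minus 5′ signal of the Gapdh controls, which grows as RNA degrades, was 2.59, 2.01 and 1.54 on quiescent arrays 1 to 3 and 1.19 to 1.51 on activated arrays. The same measure for actin ran the other way, at -0.24, 0.01 and 0.07 on quiescent arrays and -0.11 to 0.20 on activated arrays, with overlap. Their part in these values was not tested. Atg14, which directs the complex to autophagy, differed by -0.65 ± 0.49, and Ambra1, a scaffold that links it to ULK1, by -0.05 ± 0.37. A dimmer probe set of Ambra1 fell by 2.44 ± 0.76 (adjusted p = 0.0311).

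The 10 genes of conjugation, with the ATG4 proteases among them, had 0 calls, and 0 also at an unadjusted p under 0.05 in limma. Their differences ran from -1.11 to 0.77, with a median of -0.10. Atg7, the E1-like enzyme of both conjugation systems, read 8.57, 8.33 and 9.02 on quiescent and 8.37, 8.55 and 9.08 on activated arrays (0.03 ± 0.41, adjusted p = 0.966, interval -0.88 to 0.93). Of the E2-like enzymes, Atg3 differed by -0.46 ± 0.32 (adjusted p = 0.279) and Atg10 by -1.11 ± 0.52 (adjusted p = 0.124). Atg10 read 7.38, 8.56 and 7.95 against 7.21, 6.54 and 6.82, with the lowest quiescent array just above the highest activated one. A dimmer probe set of Atg3 fell by 1.53 ± 0.51 (adjusted p = 0.0415), and Atg3 was called when probe sets were averaged.

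The parts of the ATG12-ATG5-ATG16L1 complex, which fixes where ATG8 is attached, were not called. Atg12 read 8.59, 8.92 and 9.35 against 9.92, 9.89 and 9.32 (0.76 ± 0.37, adjusted p = 0.133). Atg5 differed by 0.30 ± 0.41 and Atg16l1 by -0.23 ± 0.50, both with overlapping groups. The ATG4 proteases, which trim ATG8 proteins and release them from the membrane, ranged from -0.92 ± 0.48 for Atg4c to 0.77 ± 0.45 for Atg4d, with Atg4a at -0.25 and Atg4b at 0.25. Atg4d read 7.09, 8.18 and 7.94 on quiescent and 8.52, 8.52 and 8.46 on activated arrays, which did not overlap (adjusted p = 0.212). Its second probe set above the filter differed by -0.66.

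Across the members, the arrays of the groups did not overlap for 13 of 35 genes, 10 with quiescent and 3 with activated arrays higher. This was so for 50.7% of all genes tested, 25.5% and 25.1% in the same order. The replicate SD of the members had a median of 0.41 in quiescent and 0.34 in activated cells, and that of all genes 0.53 and 0.35. Quiescent array 3 was the highest quiescent array for 18 of the 35 members, array 2 for 9 and array 1 for 8. The choice of probe set mattered for several genes. Of 67 member probe sets above the filter, 39 had a difference below 0, and 9 of the 22 genes with more than 1 such probe set had differences of both signs. Fitted one by one, 22608 probe sets gave 3690 that fell and 3523 that rose, 31.9% called in all. Of the 67 member probe sets among them, 9 from 7 genes fell and 0 rose. The 7 genes were the 4 named above with Ulk2, Ambra1 and Atg3.

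**Figure D3:**
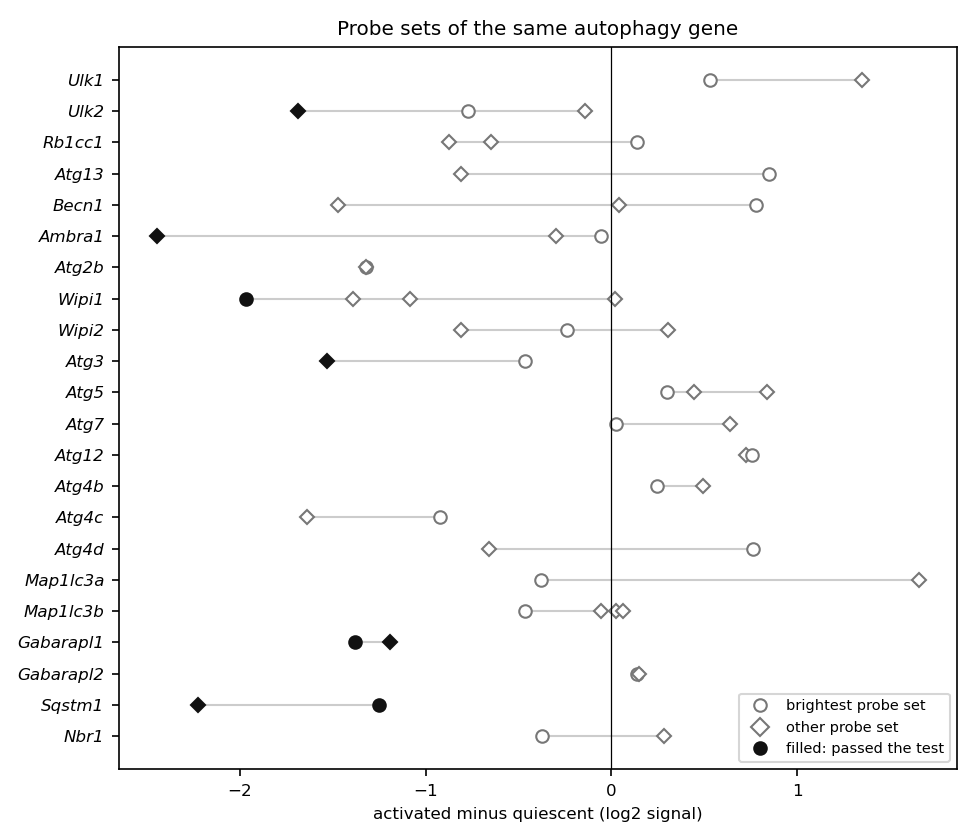
Differences between mean log2 signals of activated and quiescent arrays for every probe set above the dim filter, for the 22 autophagy genes with more than 1. Circles are the brightest probe set and diamonds the others, and filled symbols passed the test when each probe set was fitted on its own; Gabarapl1 and Sqstm1 have both probe sets filled and left of 0, while Map1lc3a, Becn1, Atg13 and Atg4d spread to both sides.

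Genes around the core pathway were listed by name in 4 groups, with earlier results of these data known. Of 26 further genes of autophagosome growth and fusion, 0 rose and 4 fell (15.4%), with a median of -0.25. This share is near the 17.6% of all genes that fell. Vamp8, a SNARE of fusion with the lysosome, read 9.32, 10.80 and 9.08 on quiescent and 4.91, 4.03 and 1.52 on activated arrays. Of the activated arrays 2 were at or below background, and the fitted difference was -6.25 ± 0.89 (adjusted p = 0.000511). Tecpr1, a tether of autophagosome and lysosome, fell by 1.53 ± 0.37 (adjusted p = 0.00894). Stx17 and Vmp1 were the remaining calls, named because the group has few, with differences of -1.35 and -1.11. Under control scaling 2 genes of the group rose and 1 fell, and 8 fell without quiescent array 3 and 2 without activated array 1.

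Receptors of selective autophagy had 1 gene that rose and 3 that fell among 12 tested, with a median of -0.44. The 33.3% called are near the 34.9% of all genes, and under control scaling 1 gene rose and 1 fell. Retreg1, a receptor for endoplasmic reticulum, read 11.005, 11.09 and 11.65 on quiescent and 6.83, 7.56 and 7.48 on activated arrays. The groups lay more than 3 log2 units apart (-3.96 ± 0.38, adjusted p = 6.55e-05). Bnip3, a receptor for mitochondria that responds to low oxygen, fell by 1.61 ± 0.39 (adjusted p = 0.00903). Phb2, a protein of the inner mitochondrial membrane with roles beyond autophagy, was 1.21 ± 0.24 higher (adjusted p = 0.00364).

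Of 27 regulators in the mTORC1 and AMPK pathways, 2 rose and 2 fell (14.8% called, against 34.9% of all genes), and the median was 0.05. Of these 4, 3 encode AMPK subunits, of which Prkaa2 (catalytic) fell by 3.08 ± 0.51 (adjusted p = 0.00126), whereas Prkab1 and Prkag2 (regulatory) were higher by 2.61 ± 0.61 (adjusted p = 0.00827) and 1.21 ± 0.41 (adjusted p = 0.0398). Prkab1 read 5.78, 7.005 and 8.35 on quiescent arrays, the first of them at background, and 9.56, 10.05 and 9.35 on activated arrays. Flcn, which acts on the Rag GTPases, differed by -1.30 ± 0.37 (adjusted p = 0.0203). Under control scaling 5 genes of this list rose and 1 fell, and with the mean of probe sets 3 rose and 0 fell, so neither Prkaa2 nor Flcn was called. Without filter or without _s_at and _x_at probe sets 1 rose, and without those probe sets 1 fell. Without quiescent array 3, 5 genes of this list rose, and without any other single array 1 did. Of those that fell, 1 was left without quiescent array 1 or 2 or activated array 1 or 3.

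Of the 4 lists, the lysosome genes had the most calls. Of 22 tested, 11 fell and 0 rose, where 17.6% of all genes fell and 17.3% rose, with a median of -1.28. The list was chosen with earlier results of these data known, so this share is not independent of the data. Ctsl, a cathepsin, fell by 3.76 ± 0.47 (adjusted p = 0.000253). Neu1, a sialidase, had a fitted difference of -3.49 ± 1.22 (adjusted p = 0.0467), with activated arrays at 7.31, 6.91 and 2.08, the last at background. Under control scaling 7 lysosome genes fell. The 36 autophagy genes and these lists share no gene, and the difference between the lists was not tested.

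**Figure D4:**
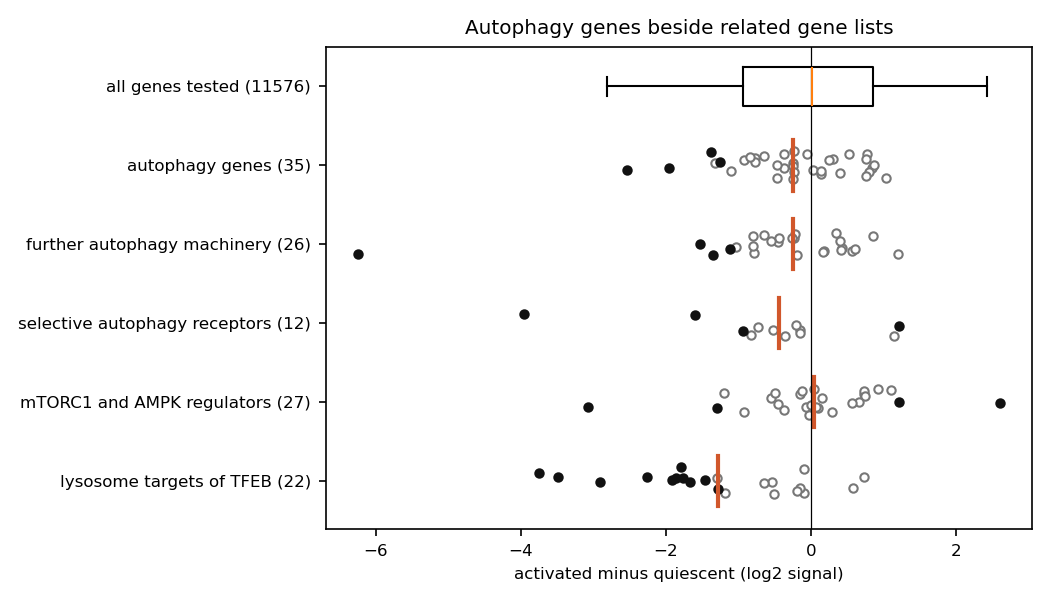
Differences between mean log2 signals of activated and quiescent arrays for the 35 autophagy genes and 4 related lists (points, filled where the gene passed the test, bars at the medians), beside a box of all 11576 genes tested (median, quartiles, whiskers at the 5th and 95th percentiles). The median of the autophagy genes is -0.25, and that of the lysosome genes -1.28.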

How the data were processed

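RNA of 3 quiescent and 3 activated samples was amplified with the NuGEN Pico system and hybridised to 1-colour arrays, per the labels' protocols. The deposited values are log2 signals of 45101 probe sets, computed by the authors with MAS5, per the submitters' processing notes, with version, detection calls and genome build not given in the sources used here. Their linear 2% trimmed mean was 500.0 on every array, which removes differences in total RNA per cell. No fit of genes used the 64 control probe sets, some of which gave the background, control scaling and technical measures tested by permutation. Of the rest, 34945 named 1 gene in the platform annotation, 932 several and 9160 none. Symbols were checked by Entrez identifier (99.4% found) in a RefSeq table of GRCm38.p6, which also gave the promoters.

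The brightest probe set by mean over 6 arrays stood for a gene, and genes below the 40th percentile of all probe sets (6.02) were dropped. No pseudocount was added in the reported fit. Groups were compared with limma 3.58.1 (lmFit, then eBayes with trend, R 4.3.3), with SE and 95% intervals from that fit. Array background was the 95th percentile of 27 controls for absent bacterial transcripts. The calculation was tested on simulated data. Alternatives were 2 pseudocounts (16 and 64), other filters, scalings and choices of probe set, eBayes without trend, a block for the replicate number, and each array left out, with probe sets and filter held. Fitting every probe set on its own was added after seeing the data. The number of arrays limits the precision.

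The autophagy genes and the related lists were chosen with earlier results of these data known. Array values are given for members called or without overlap and for some others of interest, and up to 2 called genes in each direction are named per related list. Figures were drawn with matplotlib 3.10.9.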

Additional observations from a re-analysis of the deposited data

How the results depend on the processing

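With the deposited scaling, 4 autophagy genes fell and 0 rose. Scaling to the hybridisation controls left 1 that fell (Wipi1) and gave 1 that rose (Becn1). It also gave 3059 higher and 943 lower genes in all, 8 higher and 10 lower genes over the 4 related lists (3 and 20 as reported), and a median difference of the members of 0.40. That median was -0.054 with the 60th percentile filter, which tests fewer genes, and -0.031 after quantile normalization. Fitting every probe set on its own gave 7 genes that fell. Leaving out 1 array gave 3 to 4 members that fell, 0 to 2 that rose (Pik3r4 and Uvrag without quiescent array 3, Tfe3 without activated array 1), 1313 to 2440 higher genes in all (the lowest without activated array 2), 2 to 6 higher related genes (the highest without quiescent array 3), 15 to 26 lower related genes and medians of -0.28 to -0.16.

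Over all 35 members the sign turned for 10 under control scaling and for 3 after quantile normalization. Among the 13 whose groups did not overlap, signs turned for 4. Becn1 differed by -0.12 with the mean of probe sets. Map1lc3a differed by 0.27 after that scaling, 0.64 with the mean of probe sets and 1.66 without _s_at and _x_at probe sets. Pik3c3 differed by 0.40 after it too. Wipi1 differed by 0.022 without those suffixes. Beyond the choice of probe set and the scaling itself, the cause of these shifts was not tested.

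Correlations of deviations between arrays of the same number were 0.06, -0.02 and 0.03, and those between arrays of different number ran from -0.08 to 0.05. With 3 arrays per group they cannot tell whether arrays of the same number were prepared together. With the replicate block 4 members fell and 0 rose, and all genes gave 1955 higher and 1979 lower calls. Signal over background limits Tfeb most, the 1 member with an array at background.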
